A study of Mus musculus with 3 samples.

Results

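Collagen chain genes were taken as every gene whose symbol in the array platform's annotation has the form Col, a type number, the letter a and a chain number, read by a probe set that carries that 1 symbol. The rule found 44 genes, read by 46 probe sets, among 19938 genes with a probe set of their own. By class, 11 encode fibrillar chains, 6 encode the chains of basement membrane type 4, and 27 encode all other types. The chains were measured in whole kidney of female CBL/6 mice aged 8 to 10 weeks on Affymetrix Mouse Gene 1.0 ST arrays, which read a transcript through probes along its exons. The 3 arrays were 1 of kidney from non-treated control mice, 1 from mice injected once with sheep nephrotoxic serum (NTS) at 13.5 ug per g of body weight, and 1 from mice given the same injection followed by prostaglandin E2 (PGE2) at 5 ug per g daily from day 2. NTS is an antiserum that binds the glomerular basement membrane and sets off an immune nephritis, and PGE2 is a lipid mediator. Treated mice were sacrificed on day 7. For the control mice no vehicle or non-immune serum is named, and how many animals gave RNA to an array is not stated in the labels.

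Collagens are the main structural proteins of the extracellular matrix, and each is a trimer of chains wound into a triple helix. Fibrillar collagens form the banded fibrils of the interstitium and, in kidney fibrosis, are laid down mainly by fibroblasts and myofibroblasts. Type 4 collagens form the sheet-like network of basement membranes: the alpha1 and alpha2 chains occur in nearly all of them, while the mature glomerular basement membrane is built of alpha3, alpha4 and alpha5 chains made by podocytes. Other types decorate fibrils, anchor basement membranes, form beaded filaments or span the cell membrane.

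Each group had 1 array and no difference could be checked in replicates. No test was therefore run and no p-value is given; a difference of at least 1 on the log2 scale, which is 2-fold, served as a rule of size. Below, a value in control, NTS or NTS/PGE2 kidney is that of its 1 array, and a signed difference is the first-named kidney minus the second. Values are log2 signals from RMA, a method that corrects background, equalises the arrays' distributions and summarises the probes of a set. For the 459 genes with 2 bright probe sets of their own, the SD of 1 probe set's log2 difference, taken from the gap between the 2, was 0.20 between NTS and control, 0.21 between NTS/PGE2 and NTS and 0.13 between NTS/PGE2 and control. It leaves out the spread between animals. In whole-kidney RNA, fewer cells of a type and less RNA per cell cannot be told apart. Kidney tubule markers were bright on every array: the 9 measured genes had median log2 values of 12.48, 11.37 and 12.78 in control, NTS and NTS/PGE2 kidney. The control array stood apart in genes of fat: the 9 measured adipocyte markers had a summed linear level of 14956 there, against 1832 in NTS kidney and 1734 in NTS/PGE2 kidney. The median probe set lay at 7.11, 7.11 and 7.14 on the 3 arrays.

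A small group of collagen genes stood out in NTS kidney and lay close to control in NTS/PGE2 kidney. Col1a1, Col3a1, Col4a1, Col4a2 and Col18a1 were higher by 2-fold or more in NTS kidney than in control kidney, and the same 5 were lower by 2-fold or more in NTS/PGE2 kidney than in NTS kidney. Col14a1 was the single chain lower by 2-fold or more in NTS kidney than in control kidney. No chain differed 2-fold between NTS/PGE2 and control. The first and second comparison share the NTS array, so a high value on that array enters both with opposite sign.

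Between NTS and control, 5 of 44 collagen genes (11.4%) were higher by 2-fold or more, where 1.78% of all 19938 genes were, and 1 of 44 (2.27%) was lower by 2-fold or more, where 3.37% of all genes were. Between NTS/PGE2 and NTS, 5 of 44 were lower by 2-fold or more beside 2.10% of all genes, and 0 of 44 higher by 2-fold or more beside 2.56%. Between NTS/PGE2 and control the counts were 0 higher and 0 lower, with backgrounds of 0.0351% and 0.421%. Medians moved little, because most chains differed little: over the 44 genes the median difference was 0.06, 0.00 and 0.04 in the 3 comparisons, and over all genes it was 0 in each. In NTS kidney 26 chains read above control, 2 below and 16 exactly equal, while 32.8% of all genes read above control and 30.2% below. In NTS/PGE2 kidney 30 chains read above control, 4 below and 10 exactly equal, while 30.7% of all genes read above and 27.5% below. These counts take any difference, however small. Centring the arrays otherwise would move exact ties to one side and change the sign of differences smaller than the shift. The median probe set lay at 7.14 in NTS/PGE2 kidney and 7.11 in control kidney. Chains such as Col11a1 at 0.02 and Col5a1 at 0.01 differed there by less than that gap. Exact ties made up 36.4% of collagen genes and 37.0% of all genes between NTS and control. Between NTS/PGE2 and control they made up 22.7% and 41.8%. A tie on these arrays is not a measure of no change.

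**Figure D1:**
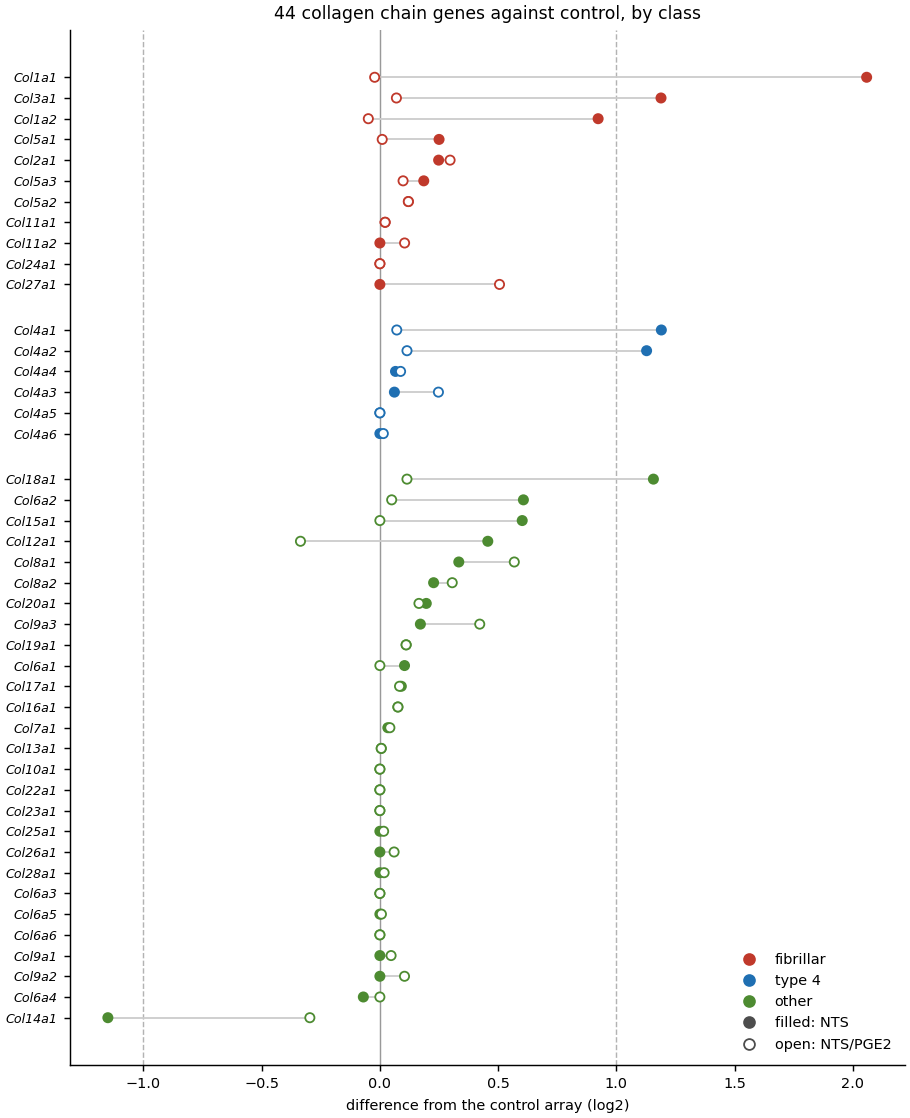
Log2 difference from the control array of each of the 44 collagen chain genes in NTS kidney (filled) and NTS/PGE2 kidney (open), ordered by class and then by the NTS value, with dashed lines at a 2-fold difference. The filled points of Col1a1, Col3a1, Col4a1, Col4a2 and Col18a1 lie beyond 1 and that of Col14a1 beyond -1, while all open points lie between -0.34 and 0.57.

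Among the fibrillar chains, the type I and type III genes carried the difference. Col1a1, the alpha1 chain of type I collagen and the usual transcript marker of interstitial fibrosis, read 8.19 in control kidney, 10.24 in NTS kidney and 8.16 in NTS/PGE2 kidney. The NTS array was high and the other two lay within 0.02 of each other. Col1a1 was thus 4.17-fold higher in NTS kidney than in control kidney, a log2 difference of 2.06 and rank 55 of 19938 genes, and 4.23-fold lower in NTS/PGE2 kidney than in NTS kidney. Its partner Col1a2, the alpha2 chain of the same trimer, read 8.44, 9.36 and 8.39 in control, NTS and NTS/PGE2 kidney. These are differences of 0.92, or 1.90-fold, and -0.97, so Col1a2 showed the same order of arrays but stayed just inside the 2-fold line. The Col1a1 difference exceeded that of Col1a2 by 1.14 between NTS and control, and between NTS/PGE2 and NTS it was the more negative by -1.11. Col3a1, the sole chain of type III collagen, which joins type I in the same fibrils, read 7.88, 9.06 and 7.95. It was 2.28-fold higher in NTS kidney than in control kidney and 2.17-fold lower in NTS/PGE2 kidney than in NTS kidney, and differed by 0.07 between NTS/PGE2 and control.

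The remaining fibrillar genes showed little or no difference of this kind. The type V chains, which regulate fibril diameter, lay far below the type I and III differences. Col5a1 read 7.65, 7.90 and 7.66 in control, NTS and NTS/PGE2 kidney. Col5a2 read 7.09, 7.22 and 7.22, and Col5a3 read 7.08, 7.27 and 7.18. The highest difference among these chains between NTS and control was 0.25, in Col5a1, close to the probe set SD. Col2a1, the cartilage fibril chain, read 7.50, 7.75 and 7.80, and the cartilage type XI chains Col11a1 and Col11a2 read 6.59, 6.61 and 6.61 and 7.35, 7.35 and 7.45. Cartilage and bone markers were low throughout, with none of 8 at or above the array median on any array. Col24a1 read 6.81 on all 3 arrays. Col27a1, a minor fibrillar chain, read 8.09 on both the control and the NTS array and 8.59 in NTS/PGE2 kidney, so that the NTS/PGE2 array was the high one, by 0.51. Over the 11 fibrillar genes the median difference was 0.19 between NTS and control, 0.00 between NTS/PGE2 and NTS and 0.07 between NTS/PGE2 and control, with 2, 0 and 0 genes higher by 2-fold or more and 0, 2 and 0 lower by 2-fold or more.

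**Figure D2:**
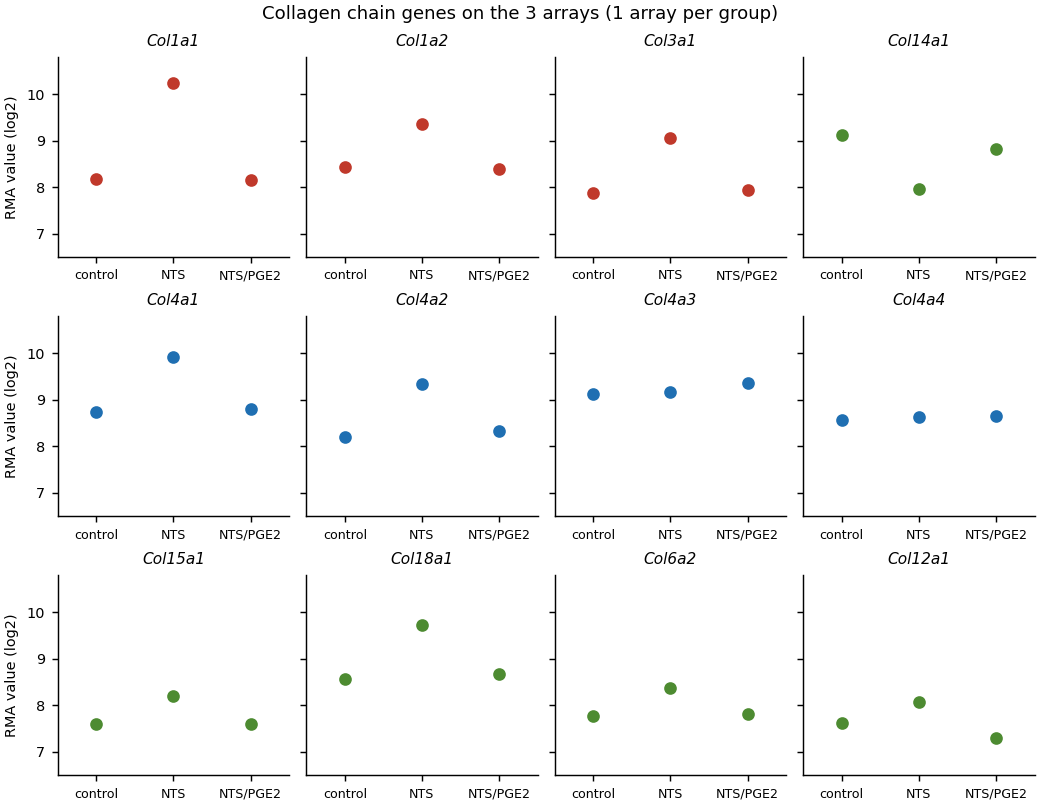
RMA values on the log2 scale of 12 collagen chain genes in control, NTS and NTS/PGE2 kidney, with 1 array per group and therefore no error bars. Col1a1, Col1a2, Col3a1, Col4a1, Col4a2, Col15a1, Col18a1, Col6a2 and Col12a1 read highest in NTS kidney, Col14a1 reads lowest there, and Col4a3 and Col4a4 stay within 0.25 over the 3 arrays.

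Promoters of type I and III genes are shown because Col1a1, Col1a2 and Col3a1 had the largest fibrillar differences in the first and second comparison. All of them read highest in NTS kidney. RefSeq windows from 250 bases before to 50 after the gene start (GRCm38.p6) matched 35 of the 44 collagen genes, with 38 windows in all, and among the type I and III genes they held Col1a2 (chr6:4505368-4505667, + strand) and Col3a1 (chr1:45311288-45311587, + strand), but not Col1a1. Capitals mark, on either strand, CCAAT (the box bound by NF-Y, read as ATTGG on the other strand), GGGCGG (the GC box bound by Sp1 factors, CCGCCC on the other strand) and TATAAA (the core promoter box of that name, TTTATA on the other strand). These were the letters searched, and no matches overlapped in these windows.
Col1a2: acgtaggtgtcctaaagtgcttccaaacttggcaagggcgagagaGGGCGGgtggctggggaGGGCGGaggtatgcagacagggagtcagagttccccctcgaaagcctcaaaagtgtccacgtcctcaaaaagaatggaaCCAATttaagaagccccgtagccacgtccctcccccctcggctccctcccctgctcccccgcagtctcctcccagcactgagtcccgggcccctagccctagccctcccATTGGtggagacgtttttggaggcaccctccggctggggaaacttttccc
Col3a1: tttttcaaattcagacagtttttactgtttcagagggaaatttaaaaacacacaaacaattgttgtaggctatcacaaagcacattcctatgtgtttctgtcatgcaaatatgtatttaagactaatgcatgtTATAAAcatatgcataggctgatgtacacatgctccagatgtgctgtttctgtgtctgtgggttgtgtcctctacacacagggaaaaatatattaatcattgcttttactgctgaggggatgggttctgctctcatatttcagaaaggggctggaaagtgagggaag

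The Col1a2 window held 2 CCAAT and 2 GGGCGG matches and no TATAAA. The Col3a1 window held 1 TATAAA match, at -117 from the gene start, and neither of the other motifs. The Col1a2 and Col3a1 windows thus shared none of the 3 motifs, and Col1a1 had no window. Letters outside the windows were not searched, so a motif absent from a window may lie beyond it. Over all 38 collagen windows 13 held CCAAT, 23 held GGGCGG and 5 held TATAAA, which is 34.2%, 60.5% and 13.2%. Of all 32851 windows of the same length the shares were 37.4%, 35.7% and 13.6%. A match describes the letters in the window and is no evidence of binding.

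The type 4 class split into the widespread chains and the chains of the specialised membranes. Col4a1 read 8.74 in control kidney, 9.93 in NTS kidney and 8.81 in NTS/PGE2 kidney. Its trimer partner Col4a2 read 8.21, 9.33 and 8.32. In both the NTS array was the high one, and the control and NTS/PGE2 arrays differed by 0.07 in Col4a1 and 0.11 in Col4a2. Col4a1 was 2.28-fold higher in NTS kidney than in control kidney and Col4a2 2.19-fold. On the NTS/PGE2 array they were lower than in NTS kidney by 2.17-fold and 2.02-fold. The differences of the partners lay within 0.06 of each other in the first comparison and within 0.11 in the second, less than the probe set SD and unlike the gap between Col1a1 and Col1a2.

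The chains of the mature glomerular basement membrane did not show this pattern. Col4a3, the chain that holds the Goodpasture antigen, read 9.11, 9.18 and 9.36 in control, NTS and NTS/PGE2 kidney, and Col4a4 read 8.56, 8.63 and 8.65. Neither stood higher in NTS kidney by more than 0.07, and both were brightest in NTS/PGE2 kidney. Col4a5, the third chain of that trimer, read 7.55 on all 3 arrays. Col4a6, which pairs with alpha5 chains in other basement membranes such as that of Bowman's capsule, was dim at 6.58, 6.58 and 6.60. Markers of the podocyte, the cell that makes the alpha3, alpha4 and alpha5 chains, had a median difference of 0.08 over 6 measured genes between NTS and control and 0.00 between NTS/PGE2 and NTS, with 0 genes different by 2-fold or more in either. Over the 6 type 4 genes the median difference was 0.06, 0.01 and 0.08 in the 3 comparisons, which describes neither of these sets of chains.

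Col4a1 and Col4a2 lie head to head and are transcribed in opposite directions from 1 shared promoter, so their windows are shown together, at chr8:11312777-11313076, - strand for Col4a1 and chr8:11312555-11312854, + strand for Col4a2 (RefSeq, GRCm38.p6), with the same motifs in capitals.
Col4a1: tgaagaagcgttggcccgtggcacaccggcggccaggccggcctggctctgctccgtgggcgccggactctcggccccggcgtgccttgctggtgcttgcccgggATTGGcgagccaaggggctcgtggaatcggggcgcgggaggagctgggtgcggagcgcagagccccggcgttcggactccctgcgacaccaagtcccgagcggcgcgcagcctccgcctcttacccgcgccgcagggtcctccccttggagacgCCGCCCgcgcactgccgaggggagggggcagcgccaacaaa
Col4a2: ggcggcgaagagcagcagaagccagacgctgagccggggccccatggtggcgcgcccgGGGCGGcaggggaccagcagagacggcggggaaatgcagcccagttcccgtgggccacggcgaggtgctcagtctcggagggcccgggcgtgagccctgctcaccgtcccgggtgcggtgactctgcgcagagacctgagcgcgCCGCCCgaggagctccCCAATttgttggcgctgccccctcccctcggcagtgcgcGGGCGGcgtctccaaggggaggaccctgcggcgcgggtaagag

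The 2 annotated starts lie 21 bases apart and the windows share 78 bases. By these starts the 2 genes overlap, so the bases before each start lie within the other gene. Col4a1 had 1 CCAAT and 1 GGGCGG match, Col4a2 had 1 and 3, and neither window held TATAAA. The GGGCGG match at 9 after the Col4a1 start and that at 7 after the Col4a2 start are the same bases, read on opposite strands. Col4a5 and Col4a6, also neighbours transcribed in opposite directions, have starts 1343 bases apart and do not overlap by these starts. Their values differed by at most 0.01 between arrays.

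Of the 27 other chains, 1 was higher by 2-fold or more and 1 lower by 2-fold or more in NTS kidney than in control kidney, with a median difference of 0.01. The higher one, Col18a1, belongs to the multiplexins, collagens of basement membrane zones, and its C-terminal fragment is endostatin. It read 8.57 in control kidney, 9.72 in NTS kidney and 8.68 in NTS/PGE2 kidney, 2.23-fold higher and then 2.06-fold lower in the first and second comparison. The other multiplexin, Col15a1, read 7.59, 8.20 and 7.59, a difference of 0.60 between NTS and control. Both multiplexins had the NTS array as the high one and a difference of at most 0.11 between NTS/PGE2 and control.

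The lower one was Col14a1, a FACIT collagen, one of those that bind to the surface of fibrils. It read 9.11 in control kidney, 7.96 in NTS kidney and 8.82 in NTS/PGE2 kidney. The NTS array was the low one, 2.22-fold below control, and the NTS/PGE2 array lay 1.81-fold above NTS and 0.30 below control on the log2 scale. Col12a1, the FACIT most similar to it, went the other way: it read 7.62, 8.08 and 7.29, a difference of 0.46 between NTS and control and -0.79 between NTS/PGE2 and NTS. Between NTS/PGE2 and control, Col12a1 at -0.34 and Col14a1 at -0.30 were the 2 lowest differences of all 44 chains.

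Type VI collagen forms beaded filaments from alpha1, alpha2 and alpha3 chains. Col6a2 read 7.77, 8.37 and 7.82 in control, NTS and NTS/PGE2 kidney, a difference of 0.61 between NTS and control. Col6a1 differed by 0.10 in that comparison, at 7.87, 7.98 and 7.87, and Col6a3 read 7.89 on all 3 arrays. The chains of this trimer did not differ by equal amounts on these arrays. The later type VI chains Col6a4, Col6a5 and Col6a6 were dim, and the 2 probe sets of Col6a5 and of Col6a6 each showed a difference of at most 0.01.

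By the order of the arrays alone, 16 of the 44 chains (36.4%) read strictly highest in NTS/PGE2 kidney, 14 (31.8%) in NTS kidney and 1 in control kidney, where 17.7%, 25.1% and 15.7% of all genes did. The NTS/PGE2 array also had the highest median, 7.14 against 7.11 on each of the others, and this order was not recounted after centring. Most of the 16 differed little, and those with the widest gap from control were Col8a1, Col27a1 and Col9a3. Col8a1, a short-chain network collagen of vessel walls, read 8.06, 8.40 and 8.63, so that the NTS array lay 0.33 and the NTS/PGE2 array 0.57 above control, the highest difference of any chain in the third comparison. Col8a2, its partner chain, was dim at 6.08, 6.31 and 6.39. Col9a3, a FACIT chain known from cartilage, read 7.45, 7.62 and 7.87, and its partner Col9a2 read 7.68, 7.68 and 7.78. None of these reached 2-fold, but the differences of Col8a1, Col27a1 and Col9a3 between NTS/PGE2 and control, at 0.57, 0.51 and 0.42, exceeded the probe set SD of 0.13.

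The other chains not yet described differed by at most 0.20 between any 2 arrays. Among the brighter of them, Col20a1, a FACIT, read 7.09, 7.29 and 7.25 in control, NTS and NTS/PGE2 kidney, and the FACIT Col16a1 read 7.15, 7.23 and 7.23. Col7a1, which forms anchoring fibrils, read 7.50, 7.54 and 7.54, and Col26a1 read 7.69, 7.69 and 7.75. The membrane-spanning Col13a1 read 7.30 on all 3 arrays and Col23a1 read 7.75 on all 3, as Col22a1, a FACIT, did at 7.38. The 10 dim other chains, Col6a4, Col6a5, Col6a6, Col8a2, Col9a1, Col10a1, Col17a1, Col19a1, Col25a1 and Col28a1, had means of 5.95 to 7.07 and differences between -0.07 and 0.31.

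Brightness bears on what could be seen. Of the 44 chains, 31 (70.5%) had a mean over the 3 arrays at or above the median of all probe sets, 7.13, against 57.2% of all genes, and 0 lay below the 25th percentile of 5.79. The 13 dimmer chains differed by at most 0.31 in any comparison. The chains past the 2-fold line all had means between 8.29 and 9.16, and Col4a3, as bright at 9.22, was not among them. The values just inside and outside the rule of size were Col1a2 at 0.92 and Col4a2 at 1.13 between NTS and control, and Col1a2 at -0.97 and Col4a2 at -1.01 between NTS/PGE2 and NTS. The second gap is smaller than the probe set SD, so which of these chains pass there is not settled by these arrays. Between NTS and control, Col3a1 and Col4a1 at 1.19, Col18a1 at 1.16 and Col14a1 at -1.15 also lay within 1 SD of the line. Between NTS/PGE2 and NTS, so did Col3a1 and Col4a1 at -1.12 and Col18a1 at -1.04. Of the chains past the line, only Col1a1 lay beyond it by more than that SD.

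**Figure D3:**
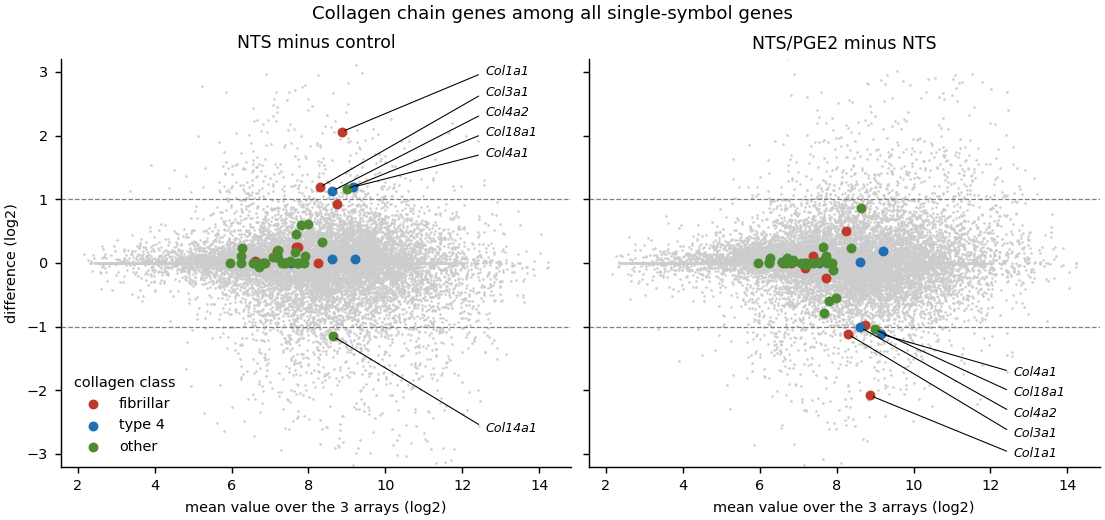
Log2 difference against the mean value over the 3 arrays between NTS and control (left) and NTS/PGE2 against NTS (right), with all single-symbol genes in grey, collagen chain genes in colour by class and dashed lines at 2-fold; genes beyond the axis limits are not shown. The 5 labelled chains above the upper line on the left, with Col1a1 at 2.06, lie below the lower line on the right, and the 13 dimmer chains lie within 0.31 of 0.

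Few genes that make and process collagen differed 2-fold. Of 18 measured genes for collagen biosynthesis in the endoplasmic reticulum, 0 were higher by 2-fold or more and 1 lower by 2-fold or more in NTS kidney than in control kidney, with a median difference of 0.00. With 1.78% of all genes higher and 3.37% lower by 2-fold or more, lists of this size would hold few such genes, and nothing is read from these counts about a difference from the chains. That gene was P3h2, a prolyl 3-hydroxylase that acts on type 4 collagen among others, at 11.65 in control kidney, 10.57 in NTS kidney and 12.06 in NTS/PGE2 kidney. P4ha1, a catalytic subunit of the prolyl 4-hydroxylase that stabilises the helix, read 9.33, 8.43 and 9.63 and, with P3h2, was higher by 2-fold or more in NTS/PGE2 kidney than in NTS kidney. Both were lowest in NTS kidney, the opposite of Col1a1. P4hb, the other subunit of that enzyme and a general disulphide isomerase, was higher in NTS kidney than in control kidney by 0.58. Serpinh1 (HSP47), the collagen chaperone, read 8.75, 8.65 and 8.95. Of 13 measured genes for processing and crosslinking outside the cell, none differed 2-fold in any of the 3 comparisons. Bmp1, the protease that removes the C-terminal propeptide of fibrillar procollagen, came nearest on the higher side at 8.63, 9.39 and 8.77, a difference of 0.76 between NTS and control, while the related Tll1 was lower in NTS kidney at -0.99. The crosslinking enzyme Lox read 8.13, 8.34 and 8.09, and Pcolce, an enhancer of Bmp1, read 10.66, 10.63 and 10.63.

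Genes for collagen receptors and breakdown went both ways. Of 19 measured genes, 8 read higher and 7 lower by any amount in NTS kidney than in control kidney. By 2-fold or more 1 was higher, Timp1, an inhibitor of metalloproteinases, by 3.29. By the same rule 1 was lower, Ddr2, a collagen receptor kinase of fibroblasts, by -1.13. Over all genes the shares were 1.78% and 3.37%, and nothing is read from 2-fold counts this small. Ddr1, the related receptor of epithelium, was higher by 0.50. Between NTS/PGE2 and NTS, 0 genes were higher and 2 lower by 2-fold or more, Timp1 and Mmp14, beside 2.56% and 2.10% of all genes. Mmp14, a membrane-bound collagenase, read 8.10, 9.00 and 7.88 in control, NTS and NTS/PGE2 kidney, while Mmp2, which it activates, stayed between 7.80 and 7.91.

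Genes for proteins that bind collagen fibrils mostly read lower in NTS kidney, where the type I and III chains read higher. By any amount, 10 read lower and 3 higher than in control kidney. Of 13 fibril partners, 8 were lower and 1 higher by 2-fold or more than in control kidney, beside 3.37% and 1.78% of all genes. Their median difference was -1.35, and among bright genes alone it was -0.68. The largest were the small leucine-rich proteins Ogn (osteoglycin) at -3.49, Prelp at -3.18 and Dcn (decorin) at -2.55, and the dermatopontin gene Dpt at -2.20. Fn1 (fibronectin) was the 1 gene higher by 2-fold or more, by 1.53. Between NTS/PGE2 and NTS, 6 were higher and 2 lower by 2-fold or more, beside 2.56% and 2.10% of all genes. The median there was 0.97, or 0.44 among bright genes. Prelp was higher by 2.87, Ogn by 2.51, Dcn by 1.66 and Dpt by 1.62; Fn1 was lower at -1.38 and Tnc (tenascin C) at -1.36. Against control, the NTS/PGE2 array was lower by 2-fold or more in 1 of the 13, Postn (periostin) at -1.71, beside 0.421% of all genes. Col14a1 thus stood with most of these partners rather than with the type I and III chains, by the signs of its differences.

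Basement membrane partners went both ways. Of 12 measured laminin, nidogen and proteoglycan genes, 5 read higher and 6 lower by any amount in NTS kidney than in control kidney. By 2-fold or more 1 was higher, the laminin alpha5 chain Lama5 at 1.02, and 1 lower, the alpha2 chain Lama2 at -1.03. Over all genes the shares were 1.78% and 3.37%, and nothing is read from 2-fold counts this small. The laminin gamma1 chain Lamc1 was higher by 0.90 and agrin (Agrn) by 0.68, while perlecan (Hspg2) differed by -0.03. Between NTS/PGE2 and NTS, Lama2 was higher by 1.03 and Lamc1 lower at -1.05, where 2.56% and 2.10% of all genes passed 2-fold. Lama5 lay just inside the line at -0.99, and the list median was -0.06. Against control the NTS/PGE2 array had 0 of 12 genes different by 2-fold or more.

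**Figure D4:**
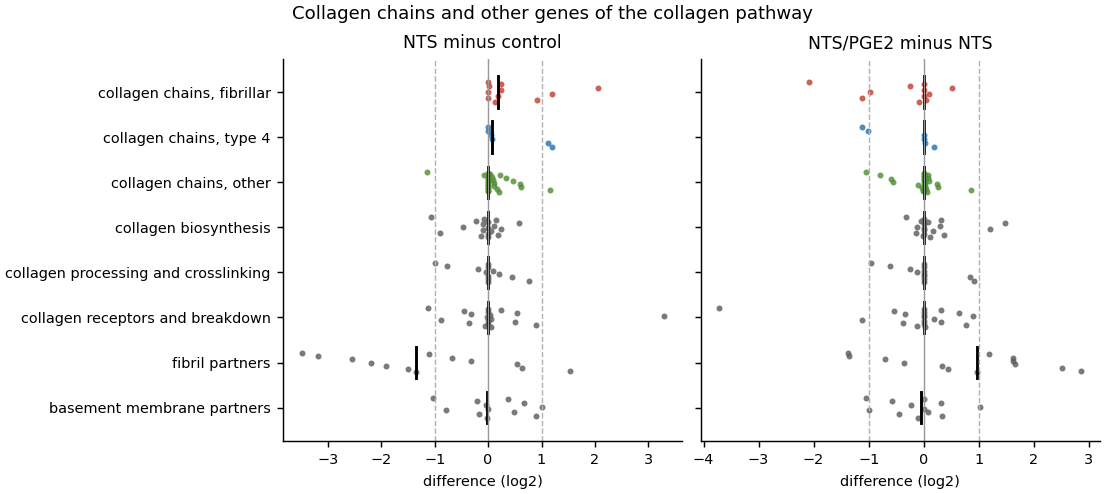
Log2 difference between NTS and control (left) and NTS/PGE2 against NTS (right) of each gene (points) in the 3 collagen chain classes and in 5 lists of other genes of the pathway, with the list median as a black bar and dashed lines at 2-fold. The fibril partners have medians of -1.35 and 0.97, while the other medians lie between -0.06 and 0.19.

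Cell type markers differed between the same arrays, and their part in the differences of the chains was not tested. Over all genes, 1.78% were higher and 3.37% lower by 2-fold or more between NTS and control. The shares were 2.56% and 2.10% between NTS/PGE2 and NTS, and 0.0351% and 0.421% between NTS/PGE2 and control. All 9 kidney tubule markers read lower in NTS kidney than in control kidney, 6 of them at least 2-fold, and all 9 read higher in NTS/PGE2 kidney than in NTS kidney, again 6 of them at least 2-fold. Their summed linear level was 59711 in control kidney, 32892 in NTS kidney and 65621 in NTS/PGE2 kidney. Of 13 measured fibroblast and mural cell markers, 0 were higher by 2-fold or more and 6 lower by 2-fold or more in NTS kidney than in control kidney; the summed linear level was 10634 in control kidney, 4582 in NTS kidney and 6648 in NTS/PGE2 kidney, and Lum and Dcn stand both here and among the fibril partners. The fibroblast receptor gene Pdgfra read 9.77, 8.44 and 9.51 and the myofibroblast actin gene Acta2 read 11.45, 10.41 and 10.31, so both were lower in NTS kidney, where Col1a1 was higher. By any amount, 11 of the 13 markers read lower and 2 higher in NTS kidney than in control kidney. All 9 endothelial markers were lower in NTS kidney than in control kidney, 7 of them at least 2-fold, and their summed level was 13700, 4430 and 11846, while Col4a1, Col4a2, Col15a1 and Col18a1, also made by endothelium, read higher there. Of 9 adipocyte markers, 7 were lower by 2-fold or more in NTS kidney and 7 in NTS/PGE2 kidney than in control kidney. Macrophage markers had 2 of 9 genes higher by 2-fold or more and 2 lower by 2-fold or more in NTS kidney than in control kidney, and urothelial markers 0 and 4 of 7. Skeletal muscle markers had none of 7 different by 2-fold or more in any comparison.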

How the data were processed

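The authors deposited log2 values from RMA in Affymetrix Expression Console, per the submitters' processing notes. Software versions and the build are not stated in the labels. RNA was labelled from 250 ng per array, per the labels' protocols. Of 35556 probe sets, 21789 had 1 gene symbol, 1621 several and 12146 were unnamed here. Probe sets of a gene were averaged. All 46 collagen probe sets matched a GRCm38.p6 gene table by gene identifier and 0 symbols altered; no probe set with several symbols held a collagen chain. Median polish over 3 arrays can return equal values: 25.4% of probe sets were equal on all 3. Precision is limited by having 1 array per group.

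Counts of genes different by 2-fold or more took all measured genes, bright or not. Every fibrillar and type 4 chain is named, as is every other chain that was bright (mean over the 3 arrays at or above the median of all probe sets) or different by 2-fold or more. Of the pathway lists, the genes named by rule are the largest, up to 4, among those different by 2-fold or more. P4hb, Serpinh1, Bmp1, Tll1, Lox, Pcolce, Ddr1, Mmp2, Agrn, Hspg2, Fn1, Tnc, Pdgfra and Acta2 were named after their values were seen. So were Lamc1 between NTS and control and Lama5 between NTS/PGE2 and NTS. The members and lists were chosen with earlier results of these data known. Of the lists, genes with no single-symbol probe set were left out. Motifs were searched as exact letters. The counting was tested on simulated data. Python 3.11.15, pandas 2.3.3, numpy 2.4.6 and matplotlib 3.10.9 were used. The 9 alternatives covered brightness, probe sets, centring, fold and symbols.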

Additional observations from a re-analysis of the deposited data

How the results depend on the processing

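Of 153 medians and counts recomputed under 9 alternatives, 145 stayed within the probe set SD (medians) or within 1.5 times (counts) of the value reported. With each array centred on its median, 2 medians changed sign by less than that SD: type 4 chains between NTS/PGE2 and NTS from 0.01 to -0.02, and other chains between NTS/PGE2 and control from 0.02 to -0.01. The 8 key chains, Col1a1, Col1a2, Col3a1, Col4a1, Col4a2, Col14a1, Col15a1 and Col18a1, moved by less than that SD and crossed the 2-fold line in 0 of 168 values. Each of them is bright and has 1 probe set, so only the centring alternatives could change its values. The other alternatives repeated the reported values and are no check on these chains. The exceptions among the medians and counts follow from the fold used or from fewer genes. At 1.5-fold, 8 chains were higher in NTS kidney than in control kidney, and 1 was higher and 8 lower on NTS/PGE2 than on NTS; the backgrounds were 5.01%, 6.39% and 5.74%. At 3-fold, 1 chain was higher and 0 lower on NTS than on control, and 1 lower on NTS/PGE2 than on NTS; the backgrounds were 0.582%, 1.29% and 0.667%. Among bright genes the fibril partners' medians were -0.68 and 0.44. Updated symbols and probe sets with several symbols altered no collagen gene. No paired analysis was possible because each group had 1 array, and no array could be left out for the same reason.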

Other observations

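Some proteins carry a collagen-like triple helix but are not named as chains. A list of 20 such genes, written after the values of the chains were seen, had a median difference of 0 in each comparison. Scara3, a scavenger receptor-like gene, was the single member different by 2-fold or more. Scara3 read 6.49 in control kidney, 7.51 in NTS kidney and 6.51 in NTS/PGE2 kidney, with the NTS array the high one as in Col1a1. Its value was below the array median on the control and NTS/PGE2 arrays. Colec12, a scavenger receptor of vascular endothelium, was lowest in NTS kidney, at 8.74, 7.95 and 8.38. The complement C1q chains C1qa, C1qb and C1qc, made mainly by macrophages, were lowest in NTS/PGE2 kidney, with differences from control of -0.39, -0.39 and -0.28. Cthrc1, named for its collagen triple helix repeat and induced in many fibrotic tissues, read 6.35 on all 3 arrays.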
